A study of Mus musculus with 56 samples.

Results

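The comparison described here set the jejunum of Tweak knockout mice (labelled KO) collected 6 h after irradiation against the jejunum of knockout mice collected at 0 h. Its members were chosen by sample title and number 9 of the 56 arrays of the series: 4 arrays at 6 h (replicates 1, 3, 4 and 5) and 5 arrays at 0 h (replicates 1 to 5). The study exposed BALB/C mice, WT or Tweak_KO, to 3 Gy of ionizing radiation and profiled whole colon and whole jejunum on Affymetrix arrays, each array from a different mouse. All 9 arrays share the knockout genotype, the strain and the tissue, and differ in the labelled time. The labels tag the 0 h arrays with the same 3 Gy treatment and do not say whether those mice were exposed before collection. Age, sex and the design of the knockout allele are not given in the sources used here. The 28 jejunum arrays also hold 5 WT arrays at 0 h, 5 WT arrays at 6 h, 4 WT arrays at 24 h and 5 KO arrays at 24 h, which entered the same fit and are quoted only beside the knockout values. Levels are the deposited log2 intensities, changes are differences of group means on that scale (6 h minus 0 h), and calls are genes with a limma p-value under 0.05 after Benjamini-Hochberg adjustment over 13646 genes.

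Tweak (Tnfsf12) is a TNF-family cytokine that signals through the receptor Fn14 (Tnfrsf12a). Ionizing radiation breaks DNA, and in intestinal crypts the damage stabilises the transcription factor p53, which raises genes for cell cycle arrest, cell death and repair within hours. The intestine also runs a circadian clock, in which Arntl and Clock drive the genes of their own repressors and of output factors such as Dbp and Tef, so the hour of collection is itself a variable in a time course. Iron and folate carriers mark the proximal small intestine, and bile acid carriers mark the ileum, so these genes place a sampled segment along the gut.

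In knockout jejunum, 12 of 43 p53 targets tested were called higher at 6 h, with Phlda3, Psrc1, Ccng1, Plk2 and Aen each raised more than 4-fold, and the other 31 did not pass the test. Of 17 clock genes tested, 5 were called, in opposite directions, with Dbp 15.7-fold higher and Arntl 7.54-fold lower. These folds are those of the probe set with the highest mean of each gene. With the mean of all probe sets of a gene instead, the log2 change of Psrc1 was 0.73, of Plk2 1.02, of Aen 0.77, of Tef 1.29, of Tert 1.04 and of Arntl -1.63, all still called, and Phlda3, Ccng1 and Dbp changed by 2.90, 2.10 and 3.77. For Psrc1, Plk2, Aen and Tert that mean takes in probe sets whose average level was 2.32 to 2.39, near the lowest deposited value of 2.32. In all, 90 genes were called (0.66% of those tested), of which 48 were higher (0.352%) and 42 were lower (0.308%) at 6 h. In 75 of the 90 the values of the 2 groups did not overlap. The count of calls rested on single arrays: it was 235 without KO 0 h replicate 1, 34 without replicate 2, 47 without replicate 4 and 30 without replicate 5, and 44, 40 and 47 without KO 6 h replicates 1, 4 and 5. Among all genes tested, 1.33% had every 6 h array above every 0 h array and 2.78% had every 6 h array below every 0 h array. The RNA came from whole tissue, in which fewer cells of a type and less RNA per cell cannot be told apart.

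Because promoters of genes that moved together can be inspected, promoter windows from RefSeq (GRCm38.p6, 250 bases before to 50 bases after a gene start) were searched on both strands for the p53 decamer consensus, the E-box CACGTG bound by Arntl with Clock, the D-box TTATGTAA bound by Dbp and Tef, and the ROR response element consensus, through which Nr1d1 and Nr1d2 repress Arntl. Of 32851 windows, 8.36% held the p53 decamer, 7.15% the E-box, 0.938% the D-box and 0.384% the ROR element, and the decamer was in a window of 9.55% of the 27025 genes. Of the 12 p53 targets called, 10 had a window, and 5 of those held the decamer: Aen, Ccng1, Ckap2, Ei24 and Siva1. Of all 43 p53 targets tested, called or not, 35 had a window and 14 held it. Phlda3, Psrc1 and Plk2, which rose more than Aen, were not among the 5, and Ei24 had the smallest change of the 12 (0.56). The windows of Ccng1, Aen and Ei24 are shown, picked because they hold the decamer, which is in capitals.
Ccng1 (chr11:40755237-40755536, minus strand): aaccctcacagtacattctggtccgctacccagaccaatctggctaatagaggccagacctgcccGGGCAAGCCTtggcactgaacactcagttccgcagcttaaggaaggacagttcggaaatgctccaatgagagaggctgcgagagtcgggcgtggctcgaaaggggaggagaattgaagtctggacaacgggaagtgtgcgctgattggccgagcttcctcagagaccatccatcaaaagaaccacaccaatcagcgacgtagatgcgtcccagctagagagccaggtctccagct
Aen (chr7:78895808-78896107, plus strand): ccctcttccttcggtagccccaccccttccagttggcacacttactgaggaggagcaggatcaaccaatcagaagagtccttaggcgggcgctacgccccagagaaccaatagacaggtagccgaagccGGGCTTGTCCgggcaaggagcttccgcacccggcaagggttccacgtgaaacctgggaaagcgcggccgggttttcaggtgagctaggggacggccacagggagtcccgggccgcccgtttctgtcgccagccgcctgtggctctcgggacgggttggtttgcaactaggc
Ei24 (chr9:36797285-36797584, minus strand): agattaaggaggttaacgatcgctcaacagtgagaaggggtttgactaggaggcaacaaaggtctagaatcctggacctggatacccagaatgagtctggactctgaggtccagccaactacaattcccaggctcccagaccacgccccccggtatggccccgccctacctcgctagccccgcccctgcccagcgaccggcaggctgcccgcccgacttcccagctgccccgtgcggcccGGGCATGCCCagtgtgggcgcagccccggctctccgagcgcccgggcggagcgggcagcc
The decamer began 185 bases before the start in Ccng1, 121 bases before it in this window of Aen and 10 bases before it in Ei24. Of the 17 clock genes tested, 15 had a window. The E-box was in 4 of them (Ciart, Cry1, Per1 and Tef), the D-box in 1 (Per3) and the ROR element in 1 (Arntl). Ciart, Cry1 and Per1 were not called. Over all genes these motifs were in a window of 8.09%, 1.11% and 0.459%. All 5 clock genes called had a window, and Dbp and Nr1d2 held none of these motifs. Tef, Per3 and Arntl, the called clock genes that held a motif, are printed here with it in capitals. Tef and Per3 were higher at 6 h and Arntl was lower.
Tef (chr15:81811164-81811463, plus strand): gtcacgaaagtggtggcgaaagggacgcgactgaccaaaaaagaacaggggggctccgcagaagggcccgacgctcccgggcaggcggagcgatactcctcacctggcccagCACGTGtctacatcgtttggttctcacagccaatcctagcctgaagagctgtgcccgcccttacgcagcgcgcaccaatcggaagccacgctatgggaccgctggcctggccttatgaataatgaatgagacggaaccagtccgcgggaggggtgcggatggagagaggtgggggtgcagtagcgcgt
Per3 (chr4:151044616-151044915, minus strand): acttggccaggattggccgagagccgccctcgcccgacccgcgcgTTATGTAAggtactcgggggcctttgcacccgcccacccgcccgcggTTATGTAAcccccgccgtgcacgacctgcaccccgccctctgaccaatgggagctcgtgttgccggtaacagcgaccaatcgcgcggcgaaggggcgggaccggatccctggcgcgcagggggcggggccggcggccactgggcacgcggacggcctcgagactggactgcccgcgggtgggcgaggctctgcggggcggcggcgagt
Arntl (chr7:113207261-113207560, plus strand): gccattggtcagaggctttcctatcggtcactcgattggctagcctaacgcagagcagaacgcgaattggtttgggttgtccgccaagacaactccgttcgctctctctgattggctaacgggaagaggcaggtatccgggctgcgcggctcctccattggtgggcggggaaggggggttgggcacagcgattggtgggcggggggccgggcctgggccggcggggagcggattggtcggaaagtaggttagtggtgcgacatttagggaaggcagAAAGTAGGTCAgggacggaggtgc
The window of Per3 held the D-box at 2 places, 205 and 158 bases before the start. The ROR element of Arntl began 26 bases after the start of this window's transcript. A match is a description of letters in these windows and not a measured binding site.

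Some arrays stood apart from their group before any comparison was made. KO 0 h replicate 1 carries, in its column name, the prefix shared by the WT jejunum arrays, and the other 8 arrays carry the prefix of the remaining knockout jejunum arrays. Defining markers of intestinal position also split the 0 h group. Fabp6, the ileal bile acid binding protein, read 7.50, 2.61, 15.33, 2.43 and 2.38 in KO 0 h replicates 1 to 5 and between 11.16 and 11.61 in the 4 arrays at 6 h. Onecut2, a transcription factor of proximal small intestine, read 5.55, 8.53, 2.82, 8.06 and 8.64 at 0 h and 5.31 to 6.09 at 6 h. KO 0 h replicate 3 therefore had ileal transcripts against its jejunum label, replicates 2, 4 and 5 had proximal ones, and replicate 1 and all 4 arrays at 6 h lay between. The mean of 8 ileum genes minus the mean of 10 proximal genes was -1.44, -3.95, 3.38, -3.94 and -3.91 in KO 0 h replicates 1 to 5 and -0.90 to -0.82 at 6 h. With replicates 1 and 3 left out, position and time move together completely. The exocrine pancreas list followed the same split, at 4.16, 7.26, 3.81, 7.73 and 7.42 at 0 h and 4.19 to 4.37 at 6 h, and Cpa1 and Ctrb1, genes of a pancreatic carboxypeptidase and a chymotrypsinogen, lay at 2.32 to 2.49 at 6 h, near the floor of 2.32. KO 6 h replicate 4 correlated with the other 6 h arrays at 0.982 to 0.984, against 0.996 to 0.998 among those 3.

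**Figure D1:**
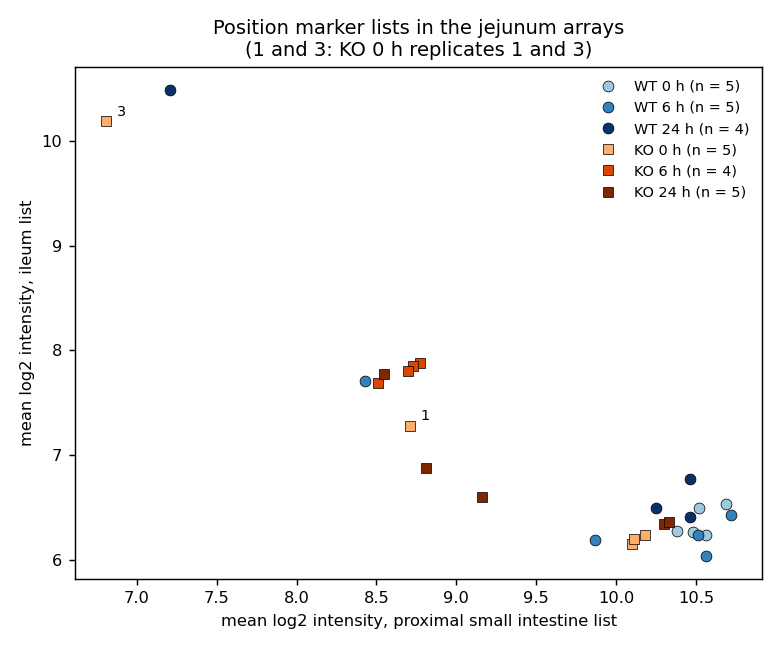
Mean log2 intensity of the proximal small intestine list (horizontal axis) and of the ileum list (vertical axis) in each of the 28 jejunum arrays, 1 point an array, coloured by group. The 4 KO 6 h arrays sit together in the middle, while the KO 0 h arrays run from the proximal corner to replicate 3 at the ileal corner.

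The targeted gene was read by probe sets that it shares with its neighbour or with the read-through transcript of both, and no probe set is annotated to Tnfsf12 alone. The probe set of Tnfsf12 and the read-through Tnfsfm13 lay between 2.34 and 2.75 in the 14 knockout jejunum arrays and between 2.77 and 4.09 in the 14 WT arrays, so the 2 genotypes did not overlap, with little room between them. The probe set that Tnfsf12 shares also with its neighbour Tnfsf13 lay between 5.96 and 7.74 in knockout and between 5.22 and 7.86 in WT, so there the genotypes overlapped. For the first probe set, the difference between 6 h and 0 h within the knockout was -0.02 ± 0.108 (SE). The receptor Tnfrsf12a read 3.46 to 4.29 at 0 h and 4.08 to 4.53 at 6 h, and its difference of 0.42 did not pass the test (adjusted p = 0.454).

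Of the 43 p53 targets tested, 12 were called higher and 0 lower, where 0.352% of all genes were called higher. The median difference of the 43 was 0.43, against -0.02 over all genes, and 14 of the 43 had every 6 h array above every 0 h array. The mean level of the 43 genes was 6.17 to 6.33 across the 5 arrays at 0 h and 6.80 to 6.87 across the 4 at 6 h. Without KO 0 h replicate 1, a comparison within 1 prefix batch, 14 p53 targets were called higher (1.72% of all genes called in either direction). Without KO 0 h replicates 1 and 3 the count was 15, and Fas was called lower (6.24% called in all). Without KO 6 h replicate 4 it was 11 (0.293%), as it was without KO 0 h replicate 4. It was 9 without any 1 of KO 0 h replicate 2 or KO 6 h replicates 1, 3 or 5, 10 without KO 0 h replicate 5, and 5 when only the 2 groups compared entered the fit.

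Among the arrest and feedback genes, Phlda3, whose product competes with the kinase Akt for membrane lipids, showed the largest rise of the list. It read 3.25, 3.25, 3.11, 3.12 and 3.91 in KO 0 h replicates 1 to 5 and 6.37, 6.55, 5.81 and 6.20 in KO 6 h replicates 1, 3, 4 and 5. All 6 h arrays were above all 0 h arrays, with a gap wider than the spread inside either group. Its mean rose from 3.33 ± 0.333 (SD, n = 5) to 6.23 ± 0.317 (SD, n = 4), a log2 change of 2.90 ± 0.193 (SE), 7.48-fold, with a limma adjusted p of 6.7e-10.

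Ccng1, which encodes cyclin G1, a feedback partner of Mdm2, read 8.89, 8.85, 9.28, 8.81 and 8.87 at 0 h and 11.46, 11.55, 9.99 and 11.37 at 6 h. Its 6 h arrays were all higher, but replicate 4 rose far less than the others. The change was 2.15 ± 0.221 (adjusted p = 1.82e-06), and 2.52 without that array. Plk2, a polo-like kinase, read 3.91 to 4.29 at 0 h and 5.87 to 6.28 at 6 h, a change of 2.04 ± 0.194 (adjusted p = 5.08e-07). Psrc1, a microtubule-associated protein, read 2.59 to 3.29 at 0 h and 4.33 to 5.43 at 6 h, again lowest in replicate 4 (2.16 ± 0.232, adjusted p = 2.99e-06). Zmat3, an RNA-binding zinc finger protein, went from 4.37 to 5.06 at 0 h to 5.61 to 6.25 at 6 h (1.28 ± 0.212, adjusted p = 0.00261). The 0 h values of Psrc1 lie close to the floor, where intensities are compressed and a fold change is understated.

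Cdkn1a, the cell cycle inhibitor p21, did not pass the test in the same arrays. It read 10.99, 10.10, 10.32, 10.63 and 10.36 at 0 h and 11.04, 10.96, 11.39 and 11.03 at 6 h, so only replicate 1 of the 0 h group reached the range of the 6 h arrays. The difference was 0.63 ± 0.178 (adjusted p = 0.113), and 0.75 with an adjusted p of 0.0223 without that replicate. With the mean of all probe sets it was 0.77 (adjusted p = 0.0299). Mdm2, the ubiquitin ligase that degrades p53, read 5.56 to 6.26 at 0 h and 6.14 to 6.82 at 6 h (0.50 ± 0.214, adjusted p = 0.325). Trp53 and Bax have no probe set annotated to them alone here.

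Among the cell death genes, Aen, a nuclease that acts in p53-dependent apoptosis, rose most evenly. It read 4.13, 4.84, 4.62, 5.11 and 5.25 at 0 h and 6.76, 6.72, 6.84 and 6.89 at 6 h. The 6 h arrays spanned only a small fraction of the 0 h spread and lay wholly above it (2.01 ± 0.187, adjusted p = 4.93e-07). Trp53inp1, a p53-induced stress protein, read 8.84, 7.78, 8.83, 7.74 and 7.78 at 0 h and 9.37, 9.21, 9.96 and 9.22 at 6 h (1.24 ± 0.217, adjusted p = 0.00504). KO 0 h replicates 1 and 3, the arrays with the highest ileum-minus-proximal values of the 0 h group, were also its high arrays for this gene. Siva1, a death-receptor adaptor, read 4.21 to 4.93 at 0 h and 5.15 to 5.90 at 6 h (1.03 ± 0.217, adjusted p = 0.0249). Ei24, an endoplasmic reticulum protein named here after its values were seen because its promoter is shown, changed by 0.56 ± 0.0917 with no overlap (adjusted p = 0.00236). Dcxr, a xylulose reductase, changed by 0.79 with overlapping groups (adjusted p = 0.0361).

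The BH3-only genes Bbc3 and Pmaip1 did not pass the test. Bbc3, which encodes Puma, read 4.98, 3.88, 4.91, 3.86 and 4.29 at 0 h and 5.01, 5.01, 5.37 and 5.39 at 6 h. Its groups did not overlap, by a narrow margin over replicates 1 and 3 of the 0 h group, and its difference of 0.81 ± 0.207 missed the threshold (adjusted p = 0.0649). Without KO 0 h replicate 1 it was 0.96 (adjusted p = 0.0112). Pmaip1, which encodes Noxa, read 11.30, 9.35, 9.02, 9.57 and 8.82 at 0 h and 9.52, 9.25, 11.54 and 9.89 at 6 h. Its groups overlapped over almost the whole range, since the highest array of each group reached the same level (0.44 ± 0.448, adjusted p = 0.767). Eda2r, a TNF-receptor family p53 target, was at 2.37 in all 5 arrays at 0 h and 2.48 to 3.83 at 6 h (0.73 ± 0.264, adjusted p = 0.241).

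In the metabolism, stress and repair list, Ckap2 and Sesn2 were called. Ckap2, a spindle protein, read 5.52 to 5.78 at 0 h and 6.48 to 7.17 at 6 h (1.30 ± 0.149, adjusted p = 9.53e-06). Sesn2, a sestrin that restrains mTORC1 signalling, read 4.36 to 4.69 at 0 h and 4.95 to 5.22 at 6 h (0.60 ± 0.134, adjusted p = 0.0358). The other 14 tested members of this list were not called.

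**Figure D2:**
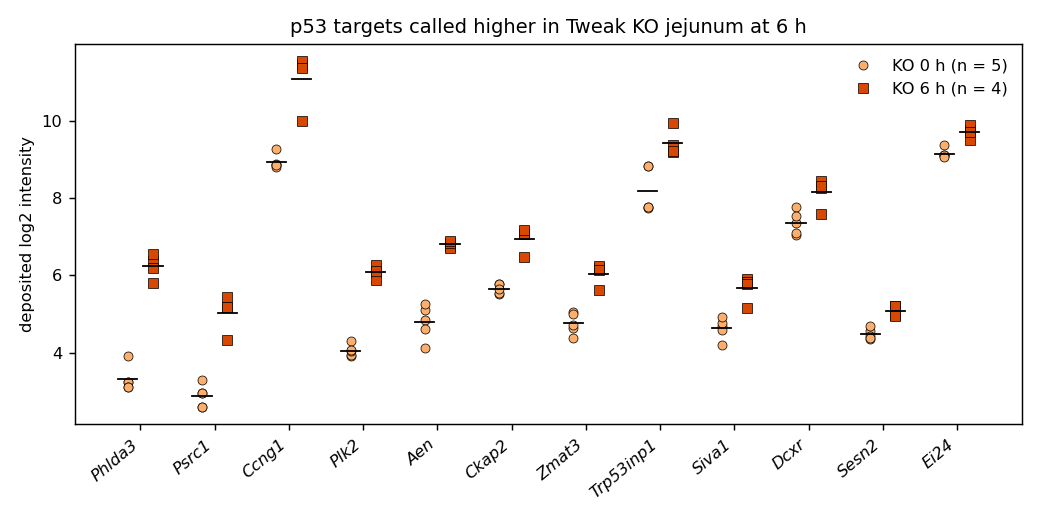
Deposited log2 intensity of the 12 p53 targets called higher, with KO 0 h arrays (circles, n = 5) and KO 6 h arrays (squares, n = 4) side by side and the group means as bars. The groups are separate in every gene drawn except Dcxr, and KO 6 h replicate 4 is the low square for Ccng1 at 9.99.

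Genes outside the p53 lists were also among the largest rises. Tert, the catalytic subunit of telomerase, read 5.13, 4.58, 4.06, 3.90 and 4.43 at 0 h and 6.98, 6.07, 5.99 and 6.59 at 6 h. Every 6 h array was above every 0 h array (1.99 ± 0.303, 3.97-fold, adjusted p = 0.000951). Ddias, a DNA damage-induced suppressor of apoptosis, read 3.91 to 4.20 at 0 h and 5.83 to 6.24 at 6 h (1.93 ± 0.204, adjusted p = 2.72e-06). The immediate early transcription factor Egr1 was the 1 member called of the 16 immediate early genes tested. It read 5.80 to 7.41 at 0 h and 7.63 to 8.57 at 6 h (1.50 ± 0.278, adjusted p = 0.0086), and without KO 6 h replicate 4 it missed the threshold (adjusted p = 0.0531). P2ry2, a receptor for extracellular ATP and UTP, changed by 1.46 (adjusted p = 0.0496) and Glipr1 by 1.20 (adjusted p = 0.0376), both without overlap. Gclc, the catalytic subunit of the first enzyme of glutathione synthesis, was the 1 member called of 9 oxidative stress genes tested, whose median difference was -0.02. It changed by 1.47 (adjusted p = 0.0409), although KO 0 h replicate 1 at 10.33 lay inside the 6 h range of 9.65 to 10.98.

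Of the 17 clock genes tested, 4 were called higher (Dbp, Tef, Nr1d2 and Per3) and 1 lower (Arntl), with a median difference of 0.86. Over all genes, 0.352% were called higher and 0.308% lower, and the median difference was -0.02. Dbp, a clock output transcription factor, read 8.47, 5.04, 5.05, 5.66 and 4.49 in KO 0 h replicates 1 to 5 and 9.61, 9.85, 9.84 and 9.56 at 6 h. Replicates 2 to 5 of the 0 h group lay far below the 6 h arrays, and replicate 1 lay near them. The change was 3.97 ± 0.727 (15.7-fold, adjusted p = 0.00729), and 4.66 without replicate 1 (adjusted p = 0.000249). Set beside the position score (ileum minus proximal), replicate 1 at -1.44 and the 6 h arrays at -0.90 to -0.82 had high Dbp, replicates 2, 4 and 5 at -3.95 to -3.91 had low Dbp, and replicate 3 at 3.38 had low Dbp. With position as a covariate, a single linear term, 5 clock genes were called, among 151 of all genes. The part of position in the levels of the clock genes was not tested.

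Arntl, the transcription factor BMAL1 and the positive arm of the clock, went the other way. It read 5.81, 7.22, 7.23, 6.52 and 7.11 at 0 h and 3.98, 4.40, 3.41 and 3.66 at 6 h. All 6 h arrays were below all 0 h arrays, and replicate 1 was again the 0 h array closest to them (-2.91 ± 0.42, adjusted p = 0.000436). Tef, a relative of Dbp, read 8.54, 5.70, 5.50, 6.07 and 5.63 at 0 h and 8.63, 8.31, 9.0 and 8.73 at 6 h, so replicate 1 lay inside the 6 h range (2.38 ± 0.495, adjusted p = 0.0236). Nr1d2, a nuclear receptor that represses Arntl, read 9.60, 7.99, 7.71, 8.28 and 8.07 at 0 h and 10.09 to 10.54 at 6 h (1.92 ± 0.43, adjusted p = 0.0358). Per3, a period gene named after its values were seen because its promoter is shown, read 4.39 in replicate 1 and 2.72 to 2.90 in the other 0 h arrays, against 3.33 to 5.32 at 6 h (1.44 ± 0.308, adjusted p = 0.0275).

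The remaining 12 clock genes did not pass the test, including Clock itself at 7.84 to 8.08 at 0 h and 7.65 to 7.98 at 6 h. Without KO 0 h replicate 1, 7 clock genes were called (1.72% of all genes called), and without replicates 1 and 3 there were 9 (6.24%). Without KO 6 h replicate 4 there were 2, Dbp and Arntl (0.293%). The count was also 2 without any 1 of KO 0 h replicates 2, 4 or 5 or KO 6 h replicates 1 or 5. In those fits 30 to 47 of all genes were called. The clock count was 3 without KO 0 h replicate 3 (92 of all genes called). The hour of day of each collection is not given in the sources used here, so time after irradiation and time of day cannot be told apart.

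**Figure D3:**
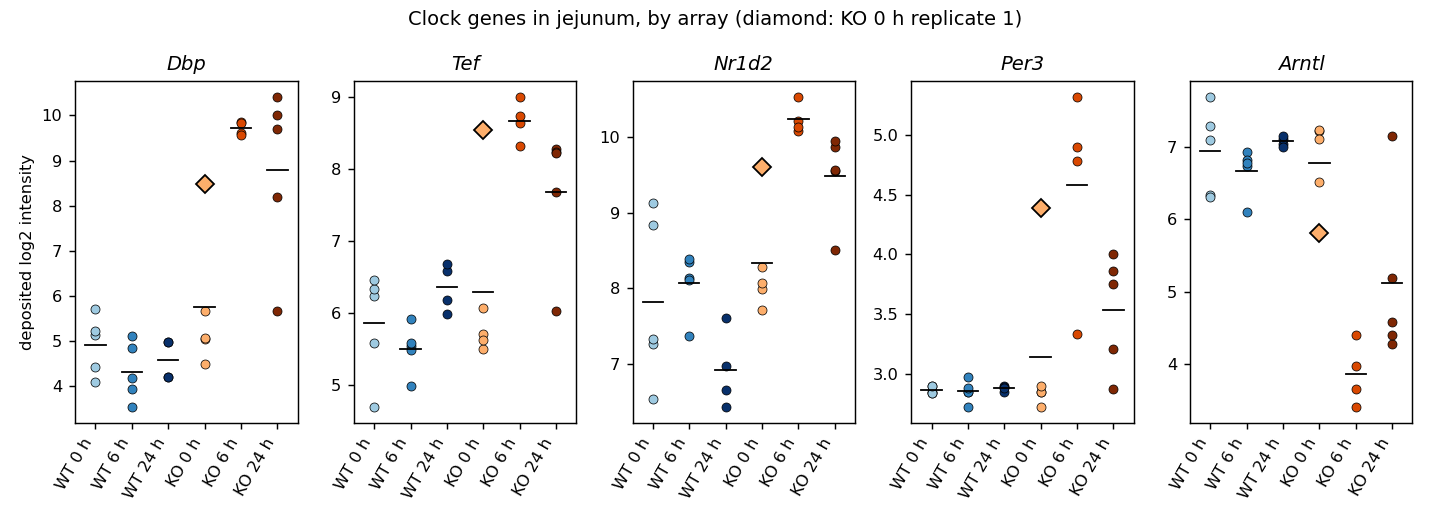
Deposited log2 intensity of the 5 called clock genes in the 6 jejunum groups, 1 point an array, with group means as bars and KO 0 h replicate 1 drawn as a diamond. The diamond lies with or towards the KO 6 h arrays in each panel, and none of the 5 genes was called between 0 and 6 h in WT.

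Among the 42 genes that fell, the largest after Arntl was Hsph1, an HSP110-family chaperone. It read 7.99, 8.71, 7.51, 9.42 and 9.02 at 0 h and 7.48, 7.08, 5.30 and 7.02 at 6 h. The groups did not overlap, but KO 0 h replicates 1 and 3 were close to the 6 h arrays and KO 6 h replicate 4 was far below (-1.81 ± 0.431, adjusted p = 0.0496). Of the 12 heat shock chaperones tested, Hsph1 and Dnajb1, an HSP40 co-chaperone, were called lower. In 7 of the 12 every 6 h array was below every 0 h array, and the median difference was -0.49. Over all genes, 0.308% were called lower, 2.78% had every 6 h array below every 0 h array, and the median difference was -0.02. The mean level of the list was 9.36 to 9.52 in KO 0 h replicates 2, 4 and 5, 8.60 and 8.49 in replicates 1 and 3, and 8.34, 8.36, 7.64 and 8.34 at 6 h. The list thus followed the split by intestinal position and by pancreatic transcripts within the 0 h group, and its part in these calls was not tested. Without KO 6 h replicate 4, Hsph1 differed by -1.34 (adjusted p = 0.218). The count of chaperones called lower was 0 without any 1 of KO 0 h replicates 2, 4 or 5 or KO 6 h replicates 4 or 5. In those fits 9 to 23 of all genes were called lower. The chaperone count was 1 without KO 6 h replicate 1 or 3 (19 and 30 of all genes lower). It was 4 when KO 0 h replicate 3 was left out (49 of all genes lower), 5 when replicate 1 was (112) and 7 when both were (514). It was 4 with position as a covariate (73 of all genes lower) and 10 with array weights (2071).

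Transcription and signalling genes were among the other named falls. Dab1, an adaptor of reelin signalling, read 6.49, 7.62, 7.51, 7.60 and 7.54 at 0 h and 5.88, 5.79, 6.32 and 5.65 at 6 h. The groups did not overlap, with replicate 1 the lowest 0 h array (-1.44 ± 0.287, adjusted p = 0.0171). Elf3, an epithelial ETS factor, read 8.65 to 9.61 at 0 h and 7.37 to 8.38 at 6 h (-1.09 ± 0.205, adjusted p = 0.00918). Ppargc1b, a coactivator of mitochondrial genes, fell by 1.31 (adjusted p = 0.0496) and Arrb1, beta-arrestin 1, by 1.20 (adjusted p = 0.0196). Fgf1, a fibroblast growth factor, fell by 1.08 and Scml4, a polycomb-group relative, by 1.01.

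Metabolic genes among the falls were led by Hsd17b2, which oxidises sex steroids, and Aldh18a1, which makes the precursor of proline. Aldh18a1 read 10.78, 11.49, 10.93, 11.18 and 11.16 at 0 h and 10.04, 10.13, 9.88 and 9.91 at 6 h. Every 6 h array was lower, and the spread within 6 h was narrow (-1.12 ± 0.209, adjusted p = 0.009). Fads1, a fatty acid desaturase, fell by 1.10 (adjusted p = 0.0249) and Hsd17b2 by 1.13 (adjusted p = 0.0457). Ppp1r14d, an inhibitor of protein phosphatase 1, fell by 1.03 and Denn2b by 1.03, both without overlap.

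Genes of proliferation and stem cells gave few calls. Tcf19, a transcription factor of the G1 to S transition, was the 1 called member of 35 replication and S phase genes, at 5.70 to 6.19 at 0 h and 4.55 to 4.81 at 6 h (-1.21 ± 0.228, adjusted p = 0.00918). Of those 35 genes 31 had a negative difference, with a median of -0.26, against 7818 of all 13646 genes, and 34 were not called. Smoc2, a secreted matrix protein used as a stem cell marker, was the 1 called member of 20 crypt stem cell and Wnt genes, at 7.13 to 7.41 at 0 h and 6.44 to 6.78 at 6 h (-0.75 ± 0.166, adjusted p = 0.0313). Lgr5, the receptor that marks crypt base stem cells, read 4.80 in KO 0 h replicate 3 and 2.89 to 3.29 in the other 0 h arrays, against 2.68 to 2.96 at 6 h (-0.53, adjusted p = 0.529). Apart from the 4.80, these values lie near the floor, which limits this reading. Mki67, a proliferation antigen, read 8.97 to 9.36 at 0 h and 8.33 to 8.91 at 6 h, a difference of -0.41 that did not pass the test despite no overlap (adjusted p = 0.257). No member of the 29 mitosis and G2 genes was called. With KO 0 h replicates 1 and 3 left out together, position and time move together. In that fit 514 of all 13646 genes were called lower and 337 higher. Among them, 5 of the 35 replication genes were lower (Mcm6, Rfc2, Gins1, Gins2 and Tcf19) and 1 of the 29 mitosis genes was higher (Cdc25b).

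No member was called of the lists for Tweak, Fn14 and NF-kB signalling (17 tested), the IL-13 axis (6), chemokines (17), the interferon response (17), B cells (11), T cells (14), macrophages and neutrophils (13), or goblet (11), Paneth (8), enteroendocrine (16) and tuft (5) cells. Il13 lay at 2.36 to 2.57 in all 9 arrays, close to the floor, and Tslp was at 2.32 to 2.40 and below the filter on low values. The interferon list had 16 of 17 negative differences with a median of -0.35, but its mean level at 0 h ran from 5.10 in replicate 3 to 6.62 in replicate 4 and took in most of the 6 h range of 5.03 to 5.95. The Paneth cell list had a median difference of 1.11. Its mean level was 11.92, 11.11, 12.42, 10.49 and 11.10 at 0 h and 12.16 to 12.60 at 6 h, so replicate 3 lay inside the 6 h range. In the fit that left out KO 0 h replicates 1 and 3, position and time move together. There 514 of all 13646 genes were called lower and 337 higher (6.24% in all). Of the 17 interferon genes 3 (Oasl2, Stat2 and Igtp) were called lower, and of the 17 chemokines 1 (Cx3cl1). In the same fit 3 of 8 Paneth genes (Ang4, Mmp7 and Itln1) and 1 of 11 goblet genes (Spink4) were called higher. Of the 16 enteroendocrine genes Nts was higher and Ghrl lower. Several of these lists moved with intestinal position inside the 0 h group, and the part of position in them was not tested.

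In WT jejunum, 36 genes were called higher (0.264%) and 23 lower (0.169%) between 0 and 6 h. The 20 genes called higher in both genotypes were 41.7% of the knockout rises and 55.6% of the WT rises, and 5 genes were called lower in both. Of the 43 p53 targets, 14 were called higher and 0 lower in WT, with a median of 0.43. Phlda3 changed by 3.17 ± 0.182 in WT and Ccng1 by 2.60 ± 0.208. The test of the difference between genotypes (knockout change minus WT change) gave 0 called genes of 13646 (0%) by limma, with 677 at an unadjusted p under 0.05 (4.96%), against 1669 for the knockout change itself (12.2%). For the 12 called p53 targets that difference ran from -0.45 ± 0.303 (SE) for Ccng1 to 0.29 ± 0.292 for Zmat3, and an adjusted p of 0.998 does not show that the genotypes respond alike.

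The genes with the largest statistics for that difference, none of them called, were Lpin1, Rapgef2, Dbp, Gtdc1 and Rnaseh2b on the positive side and Arntl, Mif4gd, Ern1, Nol4l and Ly96 on the negative side. Ly96 read 2.47 to 3.11 in the knockout arrays at 0 h and 6 h, near the floor. Lpin1, a phosphatidic acid phosphatase, changed by 0.94 ± 0.154 in knockout and -0.15 ± 0.145 in WT (difference 1.09 ± 0.212, adjusted p = 0.337). Dbp changed by 3.97 in knockout and by -0.59 ± 0.685 in WT, where its arrays read 4.08 to 5.71 at 0 h and 3.52 to 5.10 at 6 h (difference 4.57 ± 0.999, adjusted p = 0.388). Arntl differed by -2.64 ± 0.578 (adjusted p = 0.388), and in WT it read 6.31 to 7.69 at 0 h and 6.10 to 6.92 at 6 h. Without KO 0 h replicate 1, 13 genes passed the test of the difference, including Dbp, Tef, Hlf, Per3, Arntl and Lpin1, and without replicates 1 and 3 there were 35. With all arrays and position as a covariate there were 0. Position scores in WT were -4.32 to -4.03 at 0 h. At 6 h they were -4.52 to -3.68 in WT replicates 1, 2, 3 and 5 and -0.72 in replicate 4. In knockout they were -3.95 to -3.91 in 0 h replicates 2, 4 and 5, 3.38 in replicate 3 and -0.90 to -0.82 at 6 h. The part of position in these differences was not tested. All WT jejunum arrays share 1 column prefix, and with replicate 1 left out all knockout arrays share the other. A constant offset between prefixes then cancels in the differences between genotypes. Genotype and an effect of prefix on the change itself cannot be told apart in them.

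**Figure D4:**
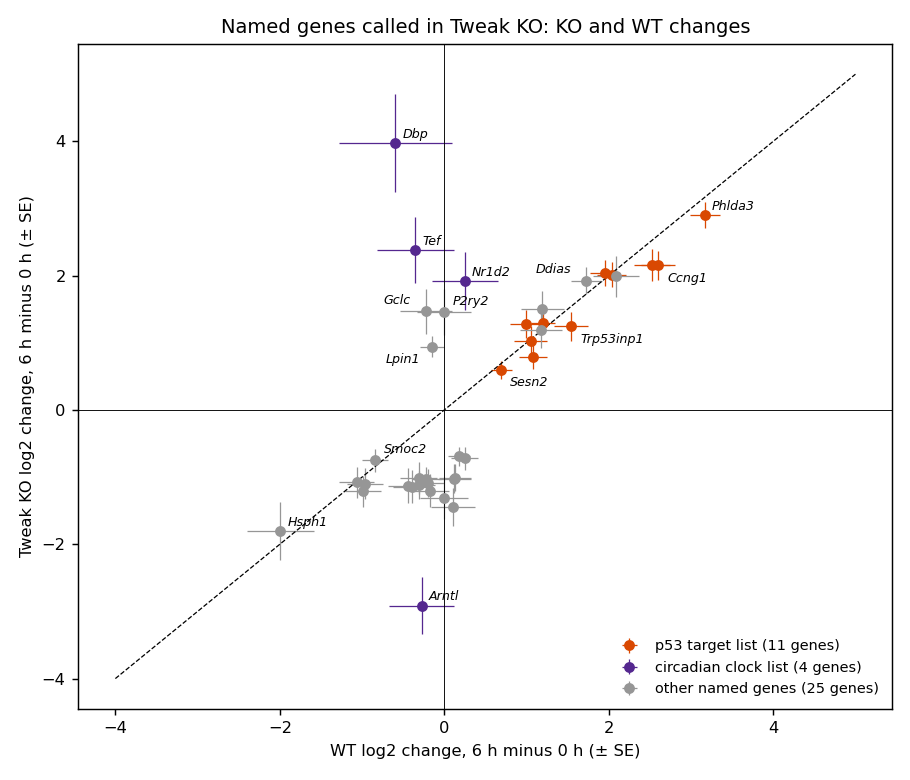
Log2 change from 0 to 6 h in Tweak KO (vertical axis) against WT (horizontal axis) for the 40 named genes called in KO, with SE bars from the fit and the dashed line of equal change. The p53 targets lie near the line, whereas Dbp, Tef and Nr1d2 lie above it and Arntl below it, none with a called difference.

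The 24 h knockout arrays share the 0 h arrays with this comparison, so their values are set beside it without a test between them. At 24 h, 36 genes were called higher (0.264%) and 58 lower (0.425%) than at 0 h. Phlda3 differed from 0 h by 2.90 at 6 h and 2.85 at 24 h, Aen by 2.01 and 1.73, and Ccng1 by 2.15 and 1.65. Ckap2 differed by 1.30 at 6 h and 0.08 at 24 h (adjusted p = 0.876), and Tert by 1.99 and 0.82 (adjusted p = 0.21). Dbp read 10.00, 9.69, 10.42, 5.66 and 8.19 in the 5 arrays at 24 h, so replicate 4 lay at the level of most 0 h arrays and the first 3 at that of the 6 h arrays. The position scores of the same 5 arrays were -0.78, -1.93, -2.56, -3.96 and -3.98, and the part of position in these levels was not tested.

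**Figure D5:**
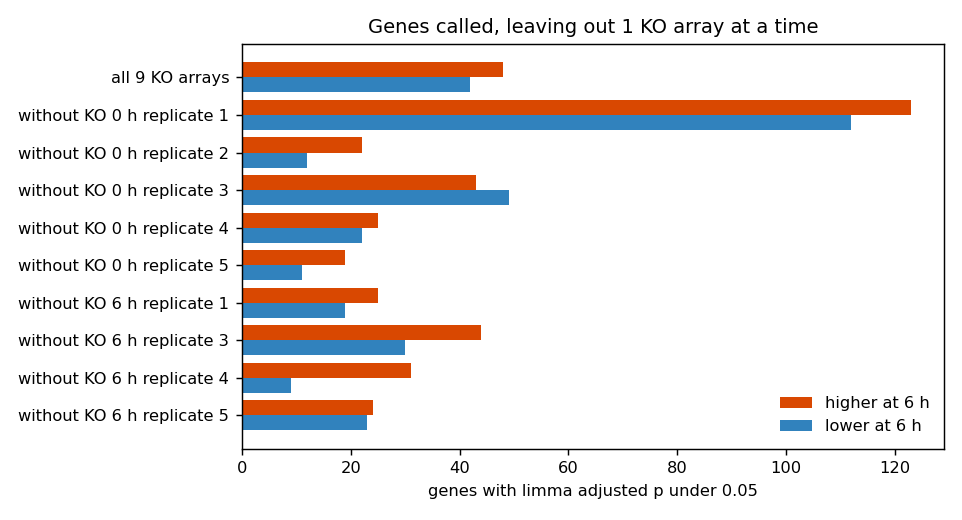
Number of genes called higher and lower in knockout jejunum at 6 h with all 9 arrays and with each array left out in turn. Leaving out KO 0 h replicate 1 raised the calls to 123 higher and 112 lower, and leaving out KO 0 h replicate 5 lowered them to 19 and 11.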

How the data were processed

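Total RNA of whole jejunum was hybridised to Affymetrix arrays. The values are the log2 intensities that the authors deposited, 1 column an array and 45101 probe sets. Both GCRMA and RMA are named, with neither role nor order, per the submitters' processing notes, and between 33.0% and 37.4% of probe sets of an array lay within 0.01 of the floor of 2.32. The deposited group means equal the means of the array columns. No probe-level or depth information was used, so the number of arrays limits the precision.

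GEO's platform annotation gave 34958 probe sets 1 gene, 932 several and 9211 none, and genes were named only from probe sets with 1. For each of 18194 genes the probe set with the highest mean over the 28 jejunum arrays was kept, and the lowest 25% by mean were left out. Groups came from the sample titles. Group means of the 6 jejunum groups were fitted with limma 3.58.1 (R 4.3.3; lmFit, eBayes with a mean-variance trend, two-sided), tested on simulated data, with Benjamini-Hochberg adjustment at 0.05. The alternatives were leaving out arrays, batch, replicate block, position covariate, the groups compared alone, array weights, the variance prior, filters, probe set means and scaling.

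The comparison, its members and the 46 gene lists (662 entries) were chosen with earlier results of these data known. Named genes are the 15 largest rises and falls among calls without overlap, the 5 largest statistics each way for the genotype difference (none called), clone and predicted symbols skipped, up to 4 called members of each list, and 13 fixed genes (Tnfsf12, Tnfrsf12a, Trp53, Cdkn1a, Mdm2, Bax, Bbc3, Pmaip1, Eda2r, Lgr5, Mki67, Il13 and Tslp). Ei24, Per3, Hif1a, Egln3, Gtse1 and Exoc4 were named after their values were seen. Every list with a call is described in the text. Promoter windows are RefSeq's for GRCm38.p6. Colon arrays were not analysed here. Each array is a different mouse per the series description. The p-values rest on the spread between arrays of a group, pooled over all jejunum groups in the fit. Among the knockout arrays compared, that spread also holds differences in column prefix and intestinal position, so it is not spread between mice alone.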

Additional observations from a re-analysis of the deposited data

Results flagged for a closer look

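Among the values of the named genes in the 2 groups, 17 of 106 sets held 1 array far from the rest of its group by Dixon's ratio, a test that chance alone meets in about 1 set in 20. KO 6 h replicate 4 gave 8 of the 17. It was low for Ccng1 at 9.99 (others 11.37 to 11.55), Ckap2 at 6.48 (7.07 to 7.17), Glipr1 at 5.95 (6.79 to 6.92), Siva1 at 5.15 (5.79 to 5.90), Mki67 at 8.33 (8.83 to 8.91), Mif4gd at 6.60 (6.89 to 6.92), Elf3 at 7.37 (8.27 to 8.38) and Dnajb1 at 6.94 (7.62 to 7.71). In the same array the glucocorticoid response list stood at 8.77, against 6.63 to 6.98 in the other 6 h arrays, and the mitosis list at 5.81, against 6.65 to 6.82. The part of either in these values was not tested.

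KO 0 h replicate 1 stood apart for Tef at 8.54 (others 5.50 to 6.07), Ppp1r14d at 8.96 (9.71 to 9.84) and Dab1 at 6.49 (7.51 to 7.62). KO 0 h replicate 3 did so for Ccng1 at 9.28 (8.81 to 8.89), Lgr5 at 4.80 (2.89 to 3.29) and Smoc2 at 7.13 (7.34 to 7.41). KO 0 h replicate 5 was high for Phlda3 at 3.91 (3.11 to 3.25). Il13 was marked at 2.36 in KO 0 h replicate 2 and at 2.36 in KO 6 h replicate 5, where the other arrays read 2.56 to 2.57, all close to the floor.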

How the results depend on the processing

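All 90 called genes kept their direction under the alternatives in which they were tested (77 of them with the lowest 50% of genes left out), but how many were called depended on the arrays and the model. Leaving out 1 array at a time gave 30 to 235 calls, 19 to 123 higher and 9 to 112 lower, 9 to 14 p53 targets, 2 to 7 clock genes and 0 to 13 genotype differences. Without KO 0 h replicates 1 and 3 there were 851 calls (337 higher, 514 lower, 39.6% higher), 9 clock genes and 35 genotype differences, and 86 of the 90 were among the calls. Batch as a term equals leaving out KO 0 h replicate 1, the 1 knockout array of its batch (235 calls, 123 higher and 112 lower, 13 genotype differences). With intestinal position as a covariate there were 151 calls (78 higher, 73 lower), holding 89 of the 90, and 0 genotype differences. Only the groups compared gave 22 calls (11 higher, 11 lower), 5 p53 targets and 2 clock genes. Array weights gave 3615 calls (1544 higher, 2071 lower, 42.7% higher), 22 p53 targets, 11 clock genes and 102 genotype differences. The main share of higher calls was 53.3%, against 66.4% with quantile normalization (77 higher) and 64.6% with arrays centred on their medians. Without KO 6 h replicate 4 it was 77.5% (31 higher, 9 lower), and without KO 0 h replicates 2 and 5 in turn 64.7% and 63.3%. With the mean of all probe sets of a gene, P2ry2, Siva1, Sesn2, Smoc2, Dnajb1 and Ppargc1b missed the threshold (adjusted p 0.0504, 0.0822, 0.162, 0.0614, 0.0614 and 0.0536), and the changes of Tcf19, Fads1 and Scml4 were -0.61, -0.55 and -0.53. The cause of these shifts was not tested.

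The replicate numbers did not pair the knockout samples: deviations of same-numbered arrays correlated at -0.09 to 0.01. In WT they correlated at 0.15 to 0.47. With the replicate block there were 50 calls (28 higher, 22 lower), 11 p53 targets, 4 clock genes and 0 genotype differences.

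Pmaip1 and Il13, which were not called, turned sign. Pmaip1 ran from -0.06 (without KO 6 h replicate 4) to 0.86 and Il13 from -0.05 to 0.04 (without KO 6 h replicate 5) when 1 array was left out, and Il13 was 0.02 without KO 0 h replicates 1 and 3 and 0.06 with arrays centred. Signals near the floor of 2.32 limit what can be said of Psrc1, Per3, Eda2r, Lgr5, Ly96, Il13 and Tslp.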

Other observations

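Outside the lists, Hif1a, the oxygen-regulated transcription factor, and Egln3, a prolyl hydroxylase that marks it for degradation, were both called higher at 6 h in knockout jejunum. Both were picked out after their values were seen. Hif1a changed by 0.85 ± 0.191 (SE, adjusted p = 0.0367) and Egln3 by 0.99 ± 0.212 (adjusted p = 0.0287), each with every 6 h array (n = 4) above every 0 h array (n = 5). In WT their changes were -0.24 and -0.07, neither called. The genotype difference was 1.09 ± 0.263 for Hif1a and 1.05 ± 0.292 for Egln3, not called over all genes. Gtse1 and Exoc4 were likewise picked afterwards. Gtse1, a microtubule-binding regulator of p53, rose by 1.16 ± 0.153 (adjusted p = 0.000113) without overlap and by 1.20 in WT. Exoc4, a subunit of the exocyst, rose by 1.56 ± 0.264 with overlapping groups (adjusted p = 0.00326) and by 2.05 in WT.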
